A study of Mus musculus with 4 samples.

Results

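Malat1, Neat1, Miat and Snhg11 are long noncoding RNAs that stay in the nucleus after transcription. Their transcripts were followed in cells labelled as sorted gonadotropes, from mice with and without deletion of Gata2. These RNAs are 4 of the 54532 genes in the deposited count table, taken by symbol. All 4 passed the filter on low counts, as did 17349 genes in all. Malat1 was chosen by its measured counts, which were higher in the knockout in this very comparison, so its difference between the groups is given as a description with no test. The other 3 were chosen as nuclear RNAs to be set beside it.

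The study deleted Gata2, which codes for a zinc-finger transcription factor, in gonadotropes, which secrete the gonadotropins of the pituitary. The groups were 2 libraries labelled GATA2 cKO (conditional knockout) and 2 labelled control, all from male mice of mixed strain aged 10 to 12 weeks. Per the labels, cells had been purified by flow cytometry, while the series' design text speaks of pituitaries. Neither the driver of the deletion, the alleles of the controls nor the number of animals per library is given in the sources used here, so p-values measure the spread between libraries, which may be technical.

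Malat1 lies in nuclear speckles, the nuclear bodies that store splicing factors, and is among the most abundant RNAs of many mammalian cells. Neat1 is the scaffold of paraspeckles, bodies that are built on its long form, while its short form is dispensable for them. Miat, also known as Gomafu, forms its own scattered nuclear domains in neurons and carries repeats of a short element that splicing factor SF1 binds. Snhg11 is a small nucleolar RNA host gene expressed in neural tissue. Since such RNAs are not exported for translation, a library with relatively more nuclear RNA would hold more of all of them at once.

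How these RNAs end bears on how a poly(A) library sees them, so their 3′ ends are shown first. Malat1 and the long form of Neat1 have no poly(A) tail added at their 3′ end. RNase P cuts each one behind a genomically encoded A-rich tract, which folds back onto U-rich stretches as a triple helix, and a tRNA-like small RNA is released. The lines below give the last 100 bases up to that tract from the GENCODE M21 transcripts (mm10, minus strand), at chr19:5795982-5796081 for Malat1 and chr19:5824708-5824807 for Neat1. Capitals mark stretches of at least 10 bases present in both ends.
Malat1: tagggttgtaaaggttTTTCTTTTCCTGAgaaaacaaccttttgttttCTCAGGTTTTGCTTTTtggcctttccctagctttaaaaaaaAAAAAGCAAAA
Neat1 long form: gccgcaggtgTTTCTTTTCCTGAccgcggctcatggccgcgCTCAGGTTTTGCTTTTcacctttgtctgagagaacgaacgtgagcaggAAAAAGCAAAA
The 2 ends share 3 stretches, of which the longest has 16 bases, and 40 of the 100 bases stand in capitals in each. The first 2 stretches are rich in T and the last is rich in A. Of the last 20 bases 16 are A in Malat1 and 11 are A in Neat1.

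The bases that follow are alike as well. GENCODE annotates a small RNA of 56 bases, Gm27702, directly behind the long form of Neat1 (chr19:5824652-5824707, minus strand). The 56 bases behind the Malat1 tract (chr19:5795926-5795981) lie inside the annotated Malat1 gene, which runs on for 292 bases past the tract. Capitals mark the longest stretch in common, of 9 bases.
Behind Malat1: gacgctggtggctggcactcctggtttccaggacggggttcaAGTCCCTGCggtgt
Gm27702, behind Neat1: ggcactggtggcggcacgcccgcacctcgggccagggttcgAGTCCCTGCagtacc
Gm27702 had a count of 0 in all 4 libraries, which hold poly(A) RNA.

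The short form of Neat1 ends differently. Its annotated last 60 bases (chr19:5842307-5842366, minus strand) hold the hexamer AATAAA of ordinary polyadenylated transcripts, shown in capitals.
Neat1 short form: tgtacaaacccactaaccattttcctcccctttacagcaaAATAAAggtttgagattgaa
The table gives 1 count per gene, so the short and long forms of Neat1 cannot be told apart in any value given here.

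Miat is known for its repeats of ACTAAC, which resemble the branch point that SF1 recognises. The longest annotated transcript, of 9163 bases, has 11 copies on its own strand. The densest 4 fall within the stretch at chr5:112216738-112216891 (minus strand), with the copies in capitals.
Miat: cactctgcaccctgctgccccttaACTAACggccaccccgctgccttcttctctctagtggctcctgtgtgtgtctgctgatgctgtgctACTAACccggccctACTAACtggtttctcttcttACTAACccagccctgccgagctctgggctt
Of 937 GENCODE transcripts of 8000 to 10000 bases, 63.7% have at least 1 copy and the median is 1. At least 11 copies stand in 3 of them, or 0.320%, and the Miat transcript itself is among these 3. Malat1 has 0 copies, Neat1 has 4 in its 20771 bases and Snhg11 has 1 in 5864.

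Libraries held 15541553 and 18362182 estimated counts in cKO replicates 1 and 2, and 10646909 and 21135301 in control replicates 1 and 2. Levels are in CPM (counts per 1000000 counts, with TMM-scaled totals). Gata2 itself stood at 221 and 214 CPM in cKO libraries, against 537 and 526 CPM in control libraries. Over all 17349 genes tested, edgeR's quasi-likelihood test called 10 at an adjusted p under 0.05, or 0.0576% (0.0115% higher and 0.0461% lower in cKO). Control replicate 1 is the shallowest library. Leaving out control replicate 2 moved the median log2 fold change of all genes by 0.22, and leaving out cKO replicate 2 moved it by -0.11. The filter then passed 19463 and 19873 genes, so these shifts also hold a change in the set of genes.

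Malat1 (ENSMUSG00000092341.2, chromosome 19, 5795690 to 5802672, minus strand, a single exon of 6983 bases in its full transcript) had 1723 and 1887 CPM in cKO libraries, against 928 and 1134 CPM in control libraries. Both cKO libraries stand above both control libraries. Its count was a whole number in every library, between 10208 and 33573. The mean was 1805 ± 116 CPM in cKO and 1031 ± 146 CPM in control (SD, n = 2 each), and the fitted log2 fold change, cKO minus control, was 0.81 (SE 0.14). The lowest cKO library had 1.52 times the CPM of the highest control library. By count Malat1 ranked 38 and 32 among the tested genes in cKO libraries, and 67 and 58 in control libraries.

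Neat1 is transcribed from the same strand 22035 bases upstream of Malat1 (ENSMUSG00000092274.3, chromosome 19, 5824708 to 5845478, 20771 bases of exon). It had 175 and 157 CPM in cKO libraries, against 121 and 148 CPM in control libraries. The groups do not overlap, but the lowest cKO library exceeds the highest control library by a factor of only 1.06. The log2 fold change was 0.30 (SE 0.19) and did not pass the threshold (edgeR adjusted p = 0.876). The gap between the means, 166 ± 12.7 CPM in cKO and 135 ± 18.7 CPM in control (SD, n = 2 each), is of the order of the gap between the control libraries.

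Miat (ENSMUSG00000097767.8, chromosome 5, 112213228 to 112229395, minus strand) is the least abundant of the 4. It had 23.99 and 19.7 CPM in cKO libraries, against 10.7 and 10.9 CPM in control libraries. Every cKO library is above every control library, the lowest cKO value being 1.81 times the highest control value. The log2 fold change was 1.01 (SE 0.47), a ratio of means of 2.02, and it did not pass the threshold over all genes (edgeR adjusted p = 0.727). These levels rest on 373 and 351 counts in cKO libraries and on 118 and 228 counts in control libraries. Counting error alone is 5.18% and 5.34% of the level in cKO and 9.21% and 6.62% in control, so the closeness of the control libraries (coefficient of variation 1.08%) is tighter than their counts can resolve.

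Snhg11 (ENSMUSG00000044349.15, chromosome 2, 158375638 to 158386145, plus strand) followed neither group. GENCODE M21 gives the gene as protein coding and RefSeq as a long noncoding RNA. It had 125 and 69.9 CPM in cKO libraries, against 43.0 and 137 CPM in control libraries. The groups overlap fully, with cKO replicate 2 and control replicate 1 low and the other libraries high. The fitted difference on the log2 scale, 0.11 (SE 0.52), did not pass the threshold (edgeR adjusted p = 0.999). The control libraries differed by a factor of 3.19 and the cKO libraries by 1.79, while counting error was between 1.87% and 4.60% of the level.

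**Figure D1:**
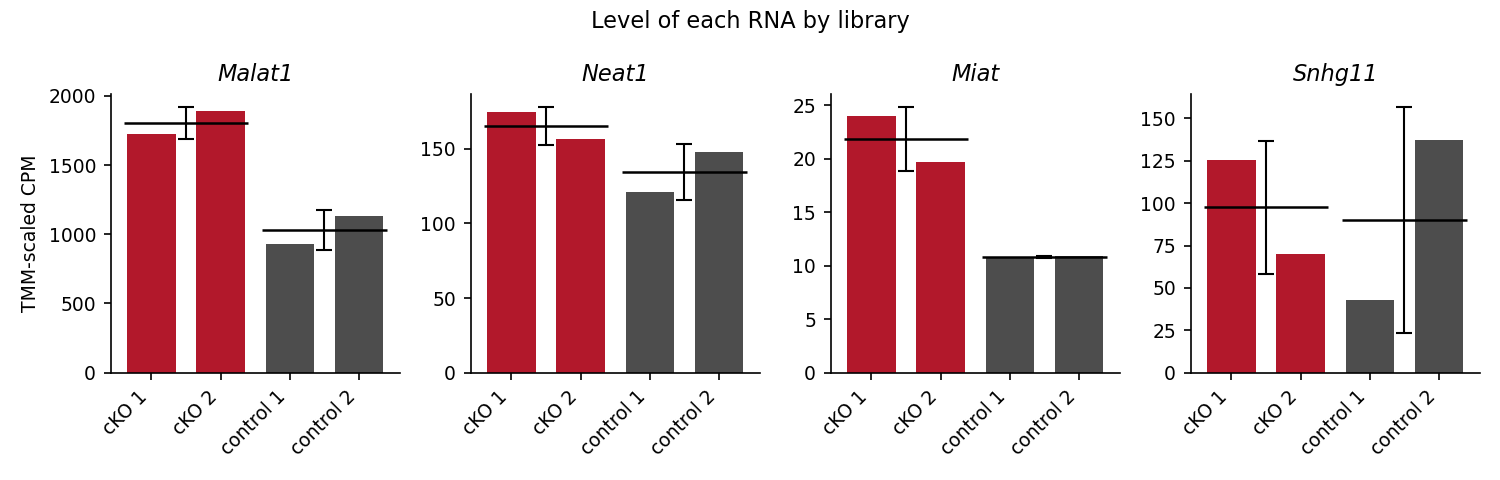
TMM-scaled CPM (y axis, from 0) of Malat1, Neat1, Miat and Snhg11 in each library, cKO in red and control in grey, with the group mean (line) and SD (bar, n = 2). Malat1 and Miat are clearly higher in both cKO libraries, Neat1 slightly, and Snhg11 ranges from 43.0 to 137 CPM within the controls alone.

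Of the 3 RNAs other than Malat1, 0 were called by edgeR, 0 had an unadjusted p under 0.05, and 0 were called by DESeq2 or limma-voom. Across all tested genes 0.0576% were called by edgeR, 5.55% by DESeq2 and 1.48% by limma-voom. Both cKO libraries were above both control libraries for 2 of these 3, Neat1 and Miat, and for 19.7% of all tested genes. An unadjusted p under 0.05 was found for 7.04% of all tested genes. With so few genes, that count says little about the RNAs as a group.

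Replicates of a group varied to very different extents from one RNA to another. On the log2 scale the control libraries (replicate 2 minus 1) differed by 0.29 for Malat1, 0.28 for Neat1, 0.02 for Miat and 1.66 for Snhg11. The corresponding differences between cKO libraries were 0.13, -0.16, -0.28 and -0.84. Among the 8841 tested genes averaging 4 or more on the log2 CPM scale, the median size of the difference was 0.25 between cKO libraries and 0.32 between control libraries. Malat1, Neat1 and Miat differed within groups by at most 0.29 and Snhg11 by more than these medians, which are not matched to the level of each RNA.

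With each library left out in turn, Malat1 ran from 0.66 to 0.96, Miat from 0.86 to 1.14 and Neat1 from 0.16 to 0.45 on the log2 scale. Malat1 was chosen for its higher counts in cKO in these same libraries, so its positive sign in each fit carries that choice. The low values of Malat1 and Neat1 came without control replicate 1 (0.66 and 0.16) and the high ones without control replicate 2. Snhg11 changed sign. Its log2 fold change was -0.50 without control replicate 1 and -0.37 without cKO replicate 1, against 1.18 without control replicate 2 and 0.46 without cKO replicate 2.

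**Figure D2:**
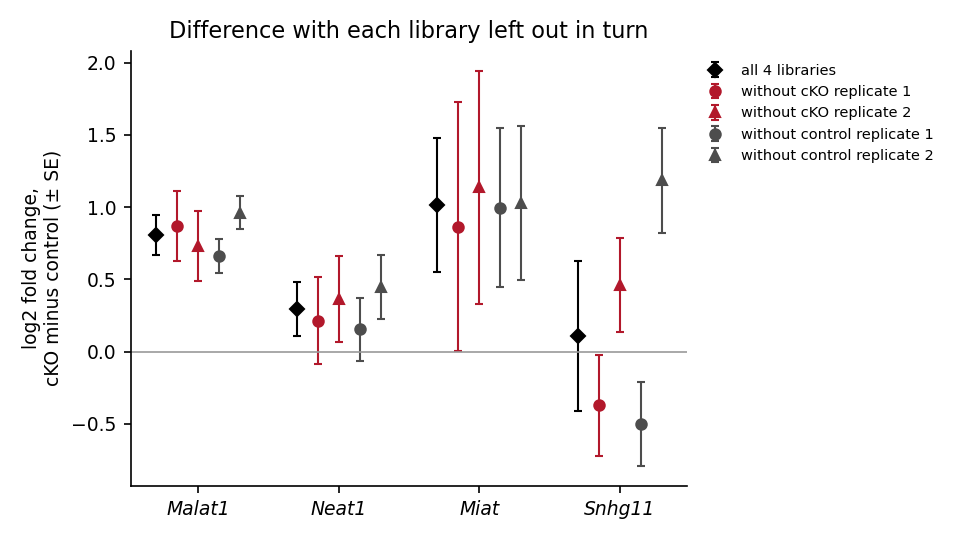
Fitted log2 fold change, cKO minus control, with its SE (y axis) for each RNA in all 4 libraries (black) and with a cKO (red) or control (grey) library left out; circles leave out replicate 1 and triangles replicate 2. Malat1 and Miat stay above 0 in each fit, while Snhg11 runs from -0.50 to 1.18. Malat1 was chosen for its higher counts in cKO, so its sign carries that choice.

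Set against exon length, the order of the levels was the same in both groups. Malat1 had 258 ± 16.6 CPM per kilobase of exon in cKO and 148 ± 20.9 in control (SD, n = 2 each). Snhg11 had 11.5 ± 4.59 in cKO and 10.6 ± 7.83 in control, and Neat1 had 7.97 ± 0.613 in cKO and 6.48 ± 0.899 in control. Miat came last with 2.35 ± 0.324 in cKO and 1.16 ± 0.0126 in control. Snhg11 and Neat1 do not differ beyond the spread of Snhg11, and the other neighbours in this order lie apart. For Neat1 the length is that of the long form, so its value per kilobase is a lower limit if most reads came from the short form.

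Ratios between the RNAs within a library do not depend on how libraries were scaled. There were 9.87 and 12.1 Malat1 counts per Neat1 count in cKO libraries, against 7.65 and 7.67 in control libraries. The ratio was higher in both cKO libraries, and the mean log2 ratio differed by 0.51 between the groups. Malat1 was chosen for its higher counts in cKO, and that choice by itself favours higher Malat1 ratios there. For Malat1 and Miat there were 71.8 and 95.6 Malat1 counts per Miat count in cKO libraries, against 86.5 and 104 in control libraries. These ranges overlap, and the mean log2 ratio differed by -0.19. That difference was 0.01 without cKO replicate 1, -0.40 without cKO replicate 2, -0.33 without control replicate 1 and -0.06 without control replicate 2. For Malat1 to Neat1 it ran from 0.37 to 0.65 with single libraries left out.

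Neat1 and Miat separated in the other direction. There were 7.28 and 7.93 Neat1 counts per Miat count in cKO libraries, against 11.3 and 13.6 in control libraries, a mean log2 difference of -0.71 with no overlap (-0.84 to -0.57 with single libraries left out). Every ratio that involves Snhg11 overlapped between the groups. Malat1 counts per Snhg11 count, for example, were 13.8 and 27.0 in cKO libraries, against 21.6 and 8.26 in control libraries. With 2 libraries against 2 no exact permutation test of such a ratio can reach the threshold, since its smallest two-sided p is 0.333, so these values are descriptions.

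**Figure D3:**
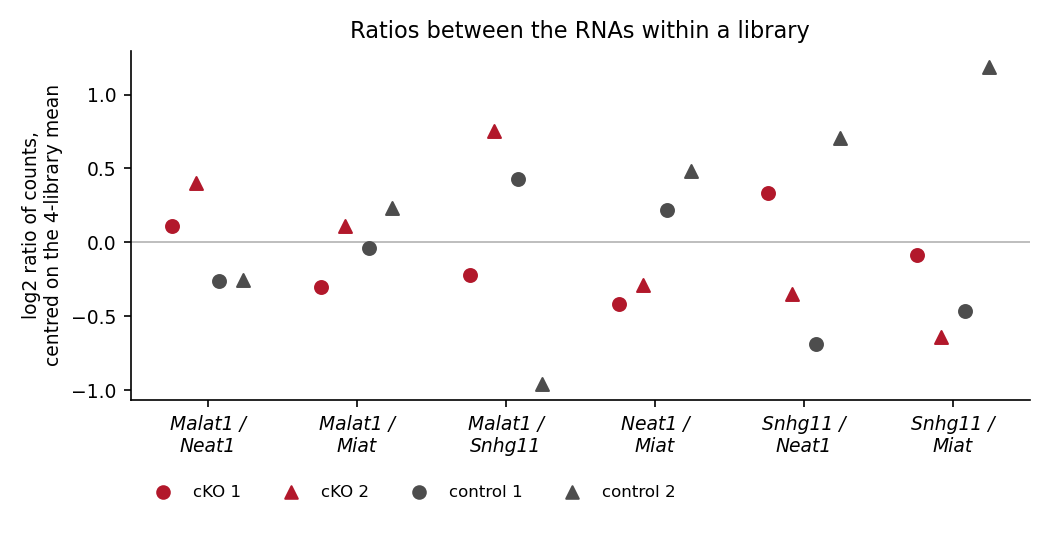
Log2 ratio of counts between pairs of the RNAs in each library, centred on the mean of the 4 libraries (y axis); red marks cKO, grey control, circles replicate 1 and triangles replicate 2. The groups separate for Malat1 to Neat1 and Neat1 to Miat and overlap for the other pairs. Malat1 was chosen for its higher counts in cKO, so its ratios carry that choice.

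Read as a share of all counts, the 4 RNAs held 0.205% and 0.207% in cKO libraries, against 0.114% and 0.142% in control libraries. Exact 95% binomial intervals were 0.203% to 0.207% and 0.205% to 0.209% in cKO replicates 1 and 2, and 0.112% to 0.116% and 0.140% to 0.143% in control replicates 1 and 2. Such intervals hold only counting error within a library. They may be too narrow even for that, because reads were not tied to single molecules. Malat1 made up 84.2% and 88.5% of this sum in cKO libraries and 84.1% and 79.3% in control libraries, so the sum is close to a second reading of Malat1. Without Malat1 the other 3 held 0.0324% and 0.0239% in cKO libraries, against 0.0181% and 0.0293% in control libraries, and the groups overlapped. Taken singly, the shares of Malat1, Neat1 and Miat were each higher in both cKO libraries, and that of Snhg11 was not.

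Mitochondrially encoded messenger RNAs, which lie outside the nucleus, were higher in the same cKO libraries. The 13 held 7.58% and 8.74% of counts in cKO libraries, against 5.36% and 6.04% in control libraries. For all 13 both cKO libraries were above both control libraries, against 19.7% of all tested genes. Their median log2 fold change was 0.65, against 0.03 over all tested genes. The edgeR test over all genes called 0 of the 13, 13 had an unadjusted p under 0.05, DESeq2 called 10 and limma-voom 13. Over all tested genes these shares were 0.0576%, 7.04%, 5.55% and 1.48%. All 13 are encoded by the mitochondrial genome and may vary together, so these counts are not 13 separate observations. mt-Nd1, for a subunit of respiratory complex I, had 6545 and 8132 CPM in cKO libraries, against 4207 and 4656 CPM in control libraries. Without control replicate 1 the median was 0.41. mt-Cytb (0.50, SE 0.10), mt-Nd2 (0.69, SE 0.14) and mt-Nd5 (0.44, SE 0.09) had log2 fold changes of the same sign.

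Per 1000 mitochondrial counts there were 22.7 and 20.9 Malat1 counts in cKO libraries, against 17.9 and 18.6 in control libraries. These Malat1 values also carry the choice of Malat1 for its higher counts in cKO. Miat had 0.317 and 0.219 in cKO libraries, against 0.207 and 0.179 in control libraries. Neat1 had 2.30 and 1.73 in cKO libraries, against 2.34 and 2.42 in control libraries, and 2.30 and 2.34 are closer than its counting error of 1.92% in cKO replicate 1 and 2.74% in control replicate 1 can resolve. Snhg11 had 1.65 and 0.775 in cKO libraries, against 0.830 and 2.25 in control libraries, and the groups overlapped. Cytosolic ribosomal protein genes held 1.37% and 1.34% of counts in cKO libraries, against 1.51% and 1.37% in control libraries, with a median log2 fold change of -0.05 over 87 tested genes. Of these 36 were higher and 51 lower, and 0 were called by edgeR, DESeq2 or limma-voom. An unadjusted p under 0.05 was found for 1 of the 87, against 7.04% of all tested genes. Rpl30 had a log2 fold change of -0.42 (SE 0.22), Rpl10a 0.39 (SE 0.17) and Rps12 0.35 (SE 0.18). The part of mitochondrial RNA content in the Malat1 value was not tested.

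Other long noncoding RNAs of chromatin or the nucleus were set beside the 4. Of 15 tested, 9 were higher and 6 lower in cKO, with a median log2 fold change of 0.25. Both cKO libraries were above both control libraries for 7, or 46.7%, against 19.7% of all tested genes. Both were below for 2 of 15, against 19.3% of all tested genes. Without control replicate 1 the median was 0.12. The edgeR test called 0, 4 had an unadjusted p under 0.05, DESeq2 called 2 and limma-voom 1. Among all tested genes the matching shares were 0.0576%, 7.04%, 5.55% and 1.48%. Meg3, an imprinted RNA expressed from the maternal chromosome, had 7679 and 8233 CPM in cKO libraries, against 6856 and 6471 CPM in control libraries (log2 fold change 0.26, SE 0.09). Firre, an X-linked RNA that binds the nuclear matrix factor hnRNPU, had 458 and 479 CPM in cKO libraries, against 325 and 368 CPM in control libraries (0.44, SE 0.14).

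Imprinted Peg13 stood lower, with 174 and 141 CPM in cKO libraries, against 269 and 204.6 CPM in control libraries (log2 fold change -0.58, SE 0.20). Xist, which coats the inactive X chromosome of female cells, had 0 and 0 counts in cKO libraries, against 57 and 38 counts in control libraries, all labelled male. Kcnq1ot1 stood at 0.42 (SE 0.27) and Tug1 at 0.07 (SE 0.21) on the log2 scale, both named after their values were seen. Nuclear RNAs outside the 4 thus also differed in size and sign from one another. Hotairm1, Pantr1 and Tsix had no count in any library.

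Small nucleolar RNA host genes, the family of Snhg11, carry small nucleolar RNAs in their introns. Of 15 tested, 11 were higher and 4 lower, with a median log2 fold change of 0.41. The edgeR test called 0, 2 had an unadjusted p under 0.05, DESeq2 called 1 and limma-voom 0. Among all tested genes the matching shares were 0.0576%, 7.04%, 5.55% and 1.48%. Snhg1 had 48.9 and 44.9 CPM in cKO libraries, against 11.6 and 28.1 CPM in control libraries (log2 fold change 1.23, SE 0.45). Snhg18 had 22.0 and 12.0 CPM in cKO libraries, against 5.36 and 5.83 CPM in control libraries (1.60, SE 0.63). For Snhg20 the value was 0.71 (SE 0.35). Without control replicate 2 the median of the family was 0.14, and without control replicate 1 it was 0.49.

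Snhg17 lies 14057 bases from Snhg11 on the opposite strand and shared its pattern only in part. It had 28.2 and 30.5 CPM in cKO libraries, against 7.91 and 20.1 CPM in control libraries (log2 fold change 1.06, SE 0.52, edgeR adjusted p = 0.747). Control replicate 1 was the lowest library for both genes, but Snhg11 had control replicate 2 at the top.

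Genes for the proteins of the bodies in which these RNAs lie were examined next. For nuclear speckle and SR splicing proteins, the partners of Malat1, 22 of 27 were higher and 5 lower in cKO, with a median log2 fold change of 0.20. Both cKO libraries were above both control libraries for 14, or 51.9%, against 19.7% of all tested genes. The edgeR test called 0, 4 had an unadjusted p under 0.05, DESeq2 called 3 and limma-voom 1. Over all tested genes the last 3 shares were 7.04%, 5.55% and 1.48%. Snrnp70, for a protein of the U1 particle, had 630 and 665 CPM in cKO libraries, against 441 and 482 CPM in control libraries (0.49, SE 0.13). Srsf2 stood at 0.63 (SE 0.22), Srsf11 at 0.44 (SE 0.15) and Luc7l3 0.40 (SE 0.17).

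Paraspeckle protein genes are the partners of Neat1. Of 15 tested, 12 were higher and 3 lower, with a median log2 fold change of 0.13, and 0 were called by edgeR, DESeq2 or limma-voom or had an unadjusted p under 0.05. Hnrnpa1, for an RNA-binding protein, had 363 and 319 CPM in cKO libraries, against 176 and 293 CPM in control libraries (0.54, SE 0.25). Nudt21, for a cleavage factor, had 0.66 (SE 0.32) and Hnrnpk 0.18 (SE 0.15). Without control replicate 1 the median of the list was 0.00, and without control replicate 2 or cKO replicate 2 it was 0.26.

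Splicing factors reported to bind Miat had log2 fold changes of 0.44 (SE 0.20) for Srsf1, 0.20 (SE 0.16) for Celf3, 0.20 (SE 0.27) for Qk and 0.04 (SE 0.14) for Sf1. All 4 were higher on average and 0 were called by edgeR, DESeq2 or limma-voom or had an unadjusted p under 0.05. Sf1, whose protein binds the ACTAAC repeats, had 507 and 549 CPM in cKO libraries, against 552 and 472 CPM in control libraries, and the groups overlapped. The median of the 4 was 0.20, and 0.03 without control replicate 2.

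RNase P and RNase Z genes, whose products process the 3′ ends and small RNAs printed above, were mostly lower. Of 12 tested, 9 were lower and 3 higher in cKO, with a median log2 fold change of -0.54. Both cKO libraries were below both control libraries for 6 of 12, against 19.3% of all tested genes, and above for 3 of 12, against 19.7%. Of the list 0 were called by edgeR, DESeq2 or limma-voom or had an unadjusted p under 0.05. Elac2, for the long form of RNase Z, had 16.8 and 20.7 CPM in cKO libraries, against 29.7 and 28.2 CPM in control libraries (-0.63, SE 0.37). Pop5 (-0.70, SE 0.44), Elac1 (-0.54, SE 0.39) and Pop1 (-1.61, SE 1.31) also had wide errors at low counts. Without control replicate 1 the median was -0.32. Summed over the list, levels were 113 and 128 CPM in cKO libraries, against 163 and 144 CPM in control libraries.

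Genes with messenger RNAs that are known to be held in the nucleus with detained introns were also examined. With 1 count per gene, their held and exported transcripts cannot be told apart, so these values are not a read of nuclear RNA. Of 16 tested, 14 were higher and 2 lower, with a median log2 fold change of 0.15. Both cKO libraries were above both control libraries for 2, or 12.5%, against 19.7% of all tested genes. The edgeR test called 0, 1 had an unadjusted p under 0.05, DESeq2 called 1 and limma-voom 0. Among all tested genes the matching shares were 0.0576%, 7.04%, 5.55% and 1.48%. Ccnl1, for cyclin L1, had 313 and 270 CPM in cKO libraries, against 208 and 201 CPM in control libraries (0.51, SE 0.16). Rbm39 was at 0.22 (SE 0.18) and Prpf39 at 0.44 (SE 0.29). The median was 0.05 without control replicate 1 and 0.24 without control replicate 2.

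**Figure D4:**
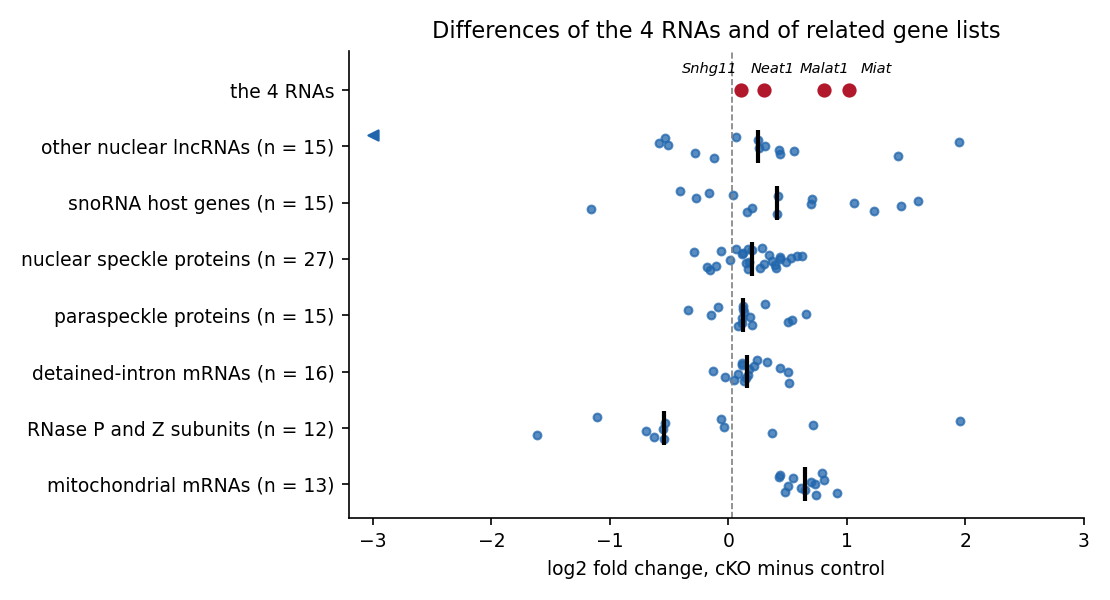
Fitted log2 fold change, cKO minus control (x axis), of the 4 RNAs (red) and of each tested gene of related lists (blue), with the list's median (black bar) and the median of all tested genes (dashed line); an arrow marks Xist, which had no count in cKO and lies beyond the axis. Mitochondrial messenger RNAs lie together on the higher side around 0.65, whereas the 4 RNAs spread from 0.11 to 1.01.

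Genes around the 4 loci were split between higher and lower. Within 500 kb of Malat1, 27 of 52 tested genes were higher and 25 lower, with a median log2 fold change of 0.06. Within 500 kb of Neat1 the counts were 30 and 24 of 54. These windows largely overlap, and Malat1 and Neat1 are each counted in the other's window, Malat1 having been chosen as higher. For Miat the counts were 6 and 6 of 12, and for Snhg11 7 and 7 of 14, and edgeR called 0 genes at each locus. Frmd8, which lies 4224 bases from Neat1 and 47030 from Malat1, had 20.8 and 26.2 CPM in cKO libraries, against 13.1 and 8.70 CPM in control libraries (1.11, SE 0.48). On the other side of Malat1, Ltbp3 at 37158 bases had -0.45 (SE 0.16), with both cKO libraries below both control libraries. Dpf2, 51038 bases from Neat1, had 0.14 (SE 0.24).

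Next to Miat, Tpst2 at 47296 bases was at 0.13 (SE 0.43), Tfip11 at 96963 bases -0.17 (SE 0.32) and Srrd at 107997 bases -0.31 (SE 0.64). Next to Snhg11, Ralgapb at 23703 bases had 0.02 (SE 0.21) and Tgm2 at 229202 bases 1.15 (SE 1.67). The table lists a count of 0 in every library for the 12 small RNA and other genes whose annotation overlaps the 4 loci, of which 2 lie on the opposite strand.

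Some genes had nearly the same profile over the 4 libraries as a given RNA. Likeness was the root mean square distance between centred log2 CPM profiles, over 8540 genes and only 4 libraries. Nearest to Malat1 were Tmem63b (0.017), Map2k3 (0.035) and Klf2 (0.037), where the median gene lay at 0.465. Nearest to Neat1 were Frs2 (0.018), Luc7l and Rsrp1 (0.026 each), and nearest to Miat were Bcorl1 (0.031), Myh9 (0.050) and Klhl21 (0.068). Snhg11 had Zfp407 (0.089), Bola3 (0.092) and Slc16a6 (0.105). Among the 4 themselves Malat1 and Miat were closest (0.190) and Miat and Snhg11 farthest apart (0.705).

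Markers of pituitary and other cells also differed between these libraries. All 6 gonadotrope markers had lower values in cKO, with sums of 6740 and 8003 CPM in cKO libraries, against 15150 and 13740 CPM in control libraries, and edgeR called 1 of them. Cga had 3448 and 4185 CPM in cKO libraries, against 6054 and 6137 CPM in control libraries, and Lhb had 2069 and 2245 CPM in cKO libraries, against 5144 and 4099 CPM in control libraries. Of 7 lactotrope markers 6 were higher, with sums of 1748 and 1804 CPM in cKO libraries, against 749 and 1104 CPM in control libraries. On the log2 scale Prl was at 1.49 (SE 0.27) and Esr1 at -0.21 (SE 0.15). In bulk libraries fewer cells of a type and less RNA per cell cannot be told apart.

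Posterior lobe and glial markers summed to 196 and 156 CPM in cKO libraries, against 98.4 and 103 CPM in control libraries, with 2 of 3 tested higher and Rax at 0. Most of that sum was Mbp, with 171 and 140 CPM in cKO libraries, against 82.7 and 88.6 CPM in control libraries (0.86, SE 0.20). Neuronal markers were higher in 8 of 12 and summed to 1053 and 1153 CPM in cKO libraries, against 837 and 999 CPM in control libraries, with Snap25 at 0.45 (SE 0.16) and Map2 at 0.34 (SE 0.25). Stem cell markers summed to 103 and 124 CPM in cKO libraries, against 53.7 and 54.5 CPM in control libraries (3 of 5 higher, Sox9 1.34, Sox2 0.64, Cdh26 at 0). Thyrotrope markers summed to 157 and 114 CPM in cKO libraries, against 81.1 and 79.2 CPM in control libraries (4 of 5 higher, Dio2 0.88, Pou1f1 1.57). The part of any of these cells in the Malat1 and Miat values was not tested.

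Somatotrope markers summed to 2178 and 401 CPM in cKO libraries, against 1147 and 2404 CPM in control libraries (2 of 5 higher, Gh -0.47, Kcnmb2 0.25, Ghsr at 0). In Gh, as in Snhg11, cKO replicate 2 and control replicate 1 were the low libraries. Corticotrope and melanotrope markers summed to 6338 and 7509 CPM in cKO libraries, against 7531 and 10203 CPM in control libraries (0 of 6 higher, Pomc -0.37, Pcsk2 -0.02). Pomc had 6032 and 7145 CPM in cKO libraries, against 7161 and 9813 CPM in control libraries. It stood above the gonadotrope marker Cga in each library, although the labels speak of sorted gonadotropes. Endothelial markers reached 10.1 to 33.1 CPM over the libraries (2 of 6 higher, Cdh5 -0.19, Pecam1 -1.44, Cldn5 and Emcn at 0) and leukocyte markers 3.15 to 24.8 CPM (0 of 2 higher, Cd68 -0.71, Fcer1g -1.27, the C1q genes at 0). Fibroblast markers summed to 18.6 and 12.7 CPM in cKO libraries, against 0.0909 and 19.0 CPM in control libraries (2 of 3 higher, Col1a2 2.71, Rgs5 1.58), and erythroid markers reached 1.85 to 36.9 CPM (1 of 5 higher, Hba-a2 -1.33, Hba-a1 -1.87). Of all these markers edgeR called 1 gonadotrope gene, Fshb.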

How the data were processed

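The authors' deposited table holds estimated counts per gene for 4 poly(A) RNA libraries, with no scaling between libraries. The submitters' processing notes name STAR 2.5.1b, featureCounts 1.5.0-p1 and mm10. The annotation release and strand setting behind the counts stay unknown from these sources. Of the values above 0, 13.4% were not whole. Identifiers were matched to GENCODE M21 with versions left off (54495 of 54532). Exon lengths come from that release, in which Malat1 has a later version than in the table.

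Counts were rounded, filtered with filterByExpr (minimum count 10, minimum total 15), scaled by TMM and tested over all genes by quasi-likelihood in edgeR 4.0.16 under R 4.3.3, group as the only term, Benjamini-Hochberg adjusted p under 0.05. SE is the log2 fold change divided by the square root of F. Fold changes are cKO minus control, and log2 CPM used a prior of 0.5 CPM. DESeq2 1.42.0 and limma-voom (limma 3.58.1) were alternatives, and the test was tried on simulated counts. The members and gene lists were chosen with earlier results of these data known. Lists are described by counts and medians, with no set test, and medians did not change with genes of no count in a group set at a floor of 3 counts per library. Named genes were the 4 with smallest p per list, the 2 highest per marker list, the 3 nearest neighbours averaging 2 or more on the log2 CPM scale, and the 3 most alike genes averaging 4 or more. A few genes that this rule picks are not reported here.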

Additional observations from a re-analysis of the deposited data

How the results depend on the processing

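Malat1, Neat1 and Miat had a positive log2 fold change in all 17 alternatives. For Malat1 that sign carries its choice by higher counts in cKO. Neat1 and Miat missed the threshold in each fit of all 4 libraries. The lowest adjusted p among those fits was 0.313 for Neat1 and 0.0661 for Miat, both by DESeq2. Apart from left-out libraries, Malat1 ran from 0.77 to 0.81, Neat1 from 0.26 to 0.30 and Miat from 0.98 to 1.02. Snhg11 had -0.016 with edgeR's newer quasi-likelihood method and -0.50 to 1.18 with 1 library left out. The count of 10 called genes became 3 with a filter of 1 CPM in 2 libraries, 253 with no filter, 26 with robust edgeR, 47 with the newer method, 256 with limma-voom and 963 with DESeq2. Leaving out single libraries gave 66 to 681 calls, most without control replicate 2. What caused these shifts was not tested. Calls higher in cKO were 2 of 10 in the main test, 431 of 963 with DESeq2, 136 of 256 with limma-voom and 128 of 253 with no filter. The share of the 4 RNAs was 0.0780 percentage points higher in cKO on average, 0.00442 without Malat1. Deviations of same-numbered libraries correlated by 0.0098 over genes. With 2 libraries per group this cannot decide whether the replicate numbers pair libraries. A fit with the replicate block made 7 calls and log2 fold changes of 0.81, 0.30, 1.01 and 0.27 for Malat1, Neat1, Miat and Snhg11. Unrounded counts were added after seeing the data and gave 10 calls. A group left with 1 library is assumed to vary like the other. Miat, with 118 to 373 counts a library, is the RNA most limited by depth.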

Other observations

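Genes annotated as lincRNA, with Malat1, Neat1 and Miat left out, held 1.25% and 1.28% of counts in cKO libraries, against 1.17% and 1.10% in control libraries. Of 531 tested, 289 were higher and 242 lower in cKO, with a median log2 fold change of 0.15, against 0.03 over all tested genes. Both cKO libraries were above both control libraries for 17.9% of them, against 19.7% of all tested genes. The edgeR test called 0, 29 had an unadjusted p under 0.05, DESeq2 called 28 and limma-voom 2. Among all tested genes the matching shares were 0.0576%, 7.04%, 5.55% and 1.48%. This median was -0.03 without cKO replicate 1, -0.13 without cKO replicate 2, 0.07 without control replicate 1 and 1.16 without control replicate 2, so its sign rests on single libraries. Gm26917 had 1009 and 1153 CPM in cKO libraries, against 746 and 830 CPM in control libraries (log2 fold change 0.46, SE 0.13). Gm29374 had 72.1 and 54.7 CPM in cKO libraries, against 25.6 and 33.6 CPM in control libraries (1.09, SE 0.30). 1810044D09Rik and Gm37986 had no count in cKO libraries and 14.7 and 1.82 CPM, and 11.7 and 1.62 CPM, in control libraries 1 and 2.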
